A study of Mus musculus with 6 samples.

Results

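The embryonic globin genes Hbb-bh1, Hbb-y and Hba-x were followed through every probe set of the deposited array table that is annotated to exactly 1 of these symbols. This gave 7 probe sets among the 19551 probe sets left once array controls were set aside: 3 for Hbb-bh1, 3 for Hbb-y and 1 for Hba-x. They stand for 3 of the 10290 genes with a probe set of their own, and all 7 were bright enough to be tested, among 11731 tested probe sets. The 6 arrays held RNA from presomitic mesoderm (PSM), whose cells become the somites, dissected from its anterior part at embryonic day 8.75 on the background labelled C57BL6/6J. The mutant group was R26R AC/AC;T-Cre and the control group R26R AC/AC, with 3 pools of 3 PSMs in each, so the AC allele was present in both and T-Cre in the mutants only. T-Cre is Cre recombinase under the promoter of T (Brachyury), a gene of the primitive streak and its mesoderm, and AC, which the labels do not spell out, is taken here, from knowledge of the study and not from the labels, as a dominant-negative inhibitor of the CREB transcription factors that Cre switches on. No pool carried T-Cre without the AC allele, so effects of Cre and of AC cannot be told apart.

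Embryonic globins are the oxygen-carrying proteins of the primitive red cells, which arise in the yolk sac from mesoderm of the primitive streak and enter the embryo once the heart beats. Hbb-bh1 and Hbb-y encode beta-like chains, Hba-x encodes the alpha-like zeta chain, and a haemoglobin molecule pairs alpha-like with beta-like chains. In mouse primitive red cells the zeta chain is replaced by adult alpha chains, and the Hbb-bh1 chain by that of Hbb-y, as the cells mature. PSM itself is not a blood-forming tissue, so these transcripts are usually read as a measure of red cells in or on the tissue. In pooled tissue, fewer cells of a type and less RNA per cell cannot be told apart. Hbb-bh1 and Hbb-y are neighbours in the beta-globin cluster on chromosome 7, and Hba-x lies beside the adult gene Hba-a1 in the alpha-globin cluster on chromosome 11.

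No promoter sequence was available for Hbb-bh1 in the reference used. The stretches before the start sites of Hbb-y and Hba-x are shown. They are the 250 bases before each start in RefSeq's GRCm38.p6 annotation, 5′ to 3′ on the gene's strand, at chr7:103853208-103853457 (minus strand) and chr11:32276350-32276599 (plus strand). Capitals mark the matches on either strand. CACCC is bound by Klf1 and related factors, GATA is the core bound by Gata1 and related factors, with AGATAA and, likewise, TGATAA as its longer forms, CCAAT is bound by NF-Y, and ATAAA, with TATAAA as its longer form, stands for TATA-box letters.
Hbb-y: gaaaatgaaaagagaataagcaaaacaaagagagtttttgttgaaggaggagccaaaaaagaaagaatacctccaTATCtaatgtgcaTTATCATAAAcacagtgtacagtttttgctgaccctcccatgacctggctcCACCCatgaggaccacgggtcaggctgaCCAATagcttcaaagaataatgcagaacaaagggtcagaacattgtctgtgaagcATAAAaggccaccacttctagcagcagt
Hba-x: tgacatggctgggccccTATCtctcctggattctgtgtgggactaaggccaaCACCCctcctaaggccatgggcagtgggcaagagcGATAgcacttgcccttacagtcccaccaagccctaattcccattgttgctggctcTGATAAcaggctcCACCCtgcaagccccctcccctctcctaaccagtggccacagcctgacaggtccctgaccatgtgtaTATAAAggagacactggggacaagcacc

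Both windows hold TATA-box letters that begin 28 bases before the start, ATAAA in Hbb-y and TATAAA in Hba-x. Hbb-y has 1 CACCC, 111 bases before the start, 1 CCAAT at 83 bases and 2 GATA matches. Hba-x has 2 CACCC, at 198 and 95 bases, 3 GATA matches and 0 CCAAT. Each has 1 match to AGATAA or TGATAA, which contains a GATA match, and in Hbb-y that match shares a base with the more distant of 2 ATAAA matches. Among 32851 windows of the same length before annotated starts, 52.0% hold CACCC, 53.6% GATA, 16.6% AGATAA or TGATAA, 33.8% CCAAT, 37.3% ATAAA and 12.4% TATAAA. The cAMP response element TGACGTCA, the letters that CREB factors bind, and its core TGACG have 0 matches in both windows, against 1.55% and 17.8% of all windows. A match here is a description of letters and not of a bound site.

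The comparison of mutant with control pools asks which transcripts differ between R26R AC/AC;T-Cre and R26R AC/AC, with effects of Cre and of AC joined. None of the 7 embryonic globin probe sets passed the test in this comparison: 0 were called higher or lower at an adjusted p under 0.05 (limma with Benjamini-Hochberg adjustment over all tested probe sets). The background was 0.690% called in either direction, with 0.247% called higher. All 7 averaged higher in mutant pools, by 0.45 to 0.75 on the log2 scale (SE 0.12 to 0.33), with a median of 0.50, against −0.0018 over all tested probe sets. Unadjusted p was under 0.05 for 6 of the 7, against 6.16% of all tested probe sets for higher values. The 3 mutant pools lay above the 3 control pools in 4 of the 7, against 9.53% of all tested probe sets. Probe sets of 1 gene measure the same RNA, so these counts stand for 3 genes in 6 pools and not for 7 separate observations.

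**Figure D1:**
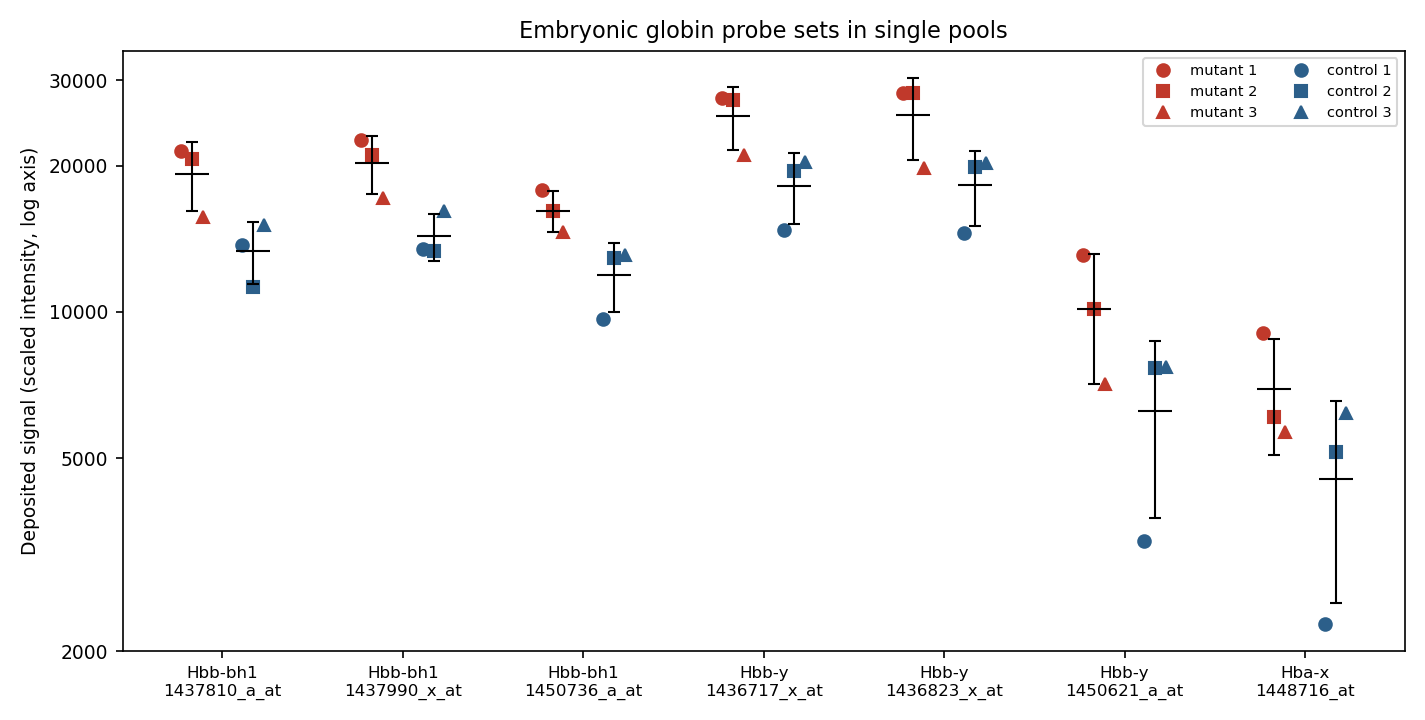
Deposited signal (scaled intensity, log axis) of the 7 embryonic globin probe sets in single pools, with mutant pools in red to the left and control pools in blue to the right. Bars are the mean and SD of 3 pools. Mutant 1 has the highest signal in all 7 probe sets, and control 1 the lowest in 5 of them.

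Hbb-bh1, the first beta-like chain of primitive red cells, had the most separated groups. Its brightest probe set, 1437990_x_at, read 22534, 20992 and 17145 in mutant pools 1, 2 and 3, against 13459, 13327 and 16127 in control pools 1, 2 and 3. The groups did not overlap, and mutant 3 lay closest to the controls. The mean was 20224 ± 2775 in mutant and 14304 ± 1580 in control (SD, n = 3 each), a ratio of 1.41 (95% confidence interval 1.17 to 1.70, limma adjusted p = 0.108). Probe set 1437810_a_at read 21475, 20641 and 15676 in mutant pools, against 13713, 11257 and 15105 in control pools, with a ratio of 1.44 (1.15 to 1.80, limma adjusted p = 0.150). Probe set 1450736_a_at read 17781, 16126 and 14590 in mutant pools, against 9686, 12912 and 13121 in control pools, with a ratio of 1.37 (1.11 to 1.68, limma adjusted p = 0.177). The 3 probe sets had the mutant pools in the same order and all placed them above the controls, while the lowest control pool was control 2 in 2 of them and control 1 in 1450736_a_at.

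Hbb-y, the beta-like chain of later primitive red cells, was measured by 2 very bright probe sets and a dimmer one. Probe set 1436717_x_at read 27599, 27248 and 21010 in mutant pools, against 14729, 19491 and 20314 in control pools, without overlap, and its ratio was 1.39 (1.11 to 1.75, limma adjusted p = 0.195). Probe set 1436823_x_at read 28253, 28213 and 19801 in mutant pools, against 14540, 19912 and 20247 in control pools, with a ratio of 1.39 (1.07 to 1.81, limma adjusted p = 0.256). Here mutant 3 lay below control 2 and control 3, so the groups overlapped. Probe set 1450621_a_at read 13122, 10131 and 7103 in mutant pools, against 3373, 7645 and 7688 in control pools, again with mutant 3 below 2 of the controls. Its ratio was 1.68 with a wide interval (1.02 to 2.76, limma adjusted p = 0.343). For the same transcript, the highest pool exceeded the lowest 1.87-fold and 1.94-fold in the bright probe sets and 3.89-fold in 1450621_a_at. The bright ones lay between the 97.7th and 99.8th percentile of all signals on their arrays, and the arrays' own highest signals were 33237 to 41939. Whether signal at this brightness still grows in proportion to RNA was not tested.

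Hba-x, the zeta chain, read 9059, 6062 and 5664 in mutant pools, against 2280, 5141 and 6182 in control pools. The groups overlapped, since control 3 lay above mutant 2 and mutant 3, and control 1 stood far below the other 5 pools. The mean was 6928 ± 1856 in mutant and 4535 ± 2020 in control (SD, n = 3 each), and the ratio of 1.62 had an interval that included 1 (0.969 to 2.72, limma adjusted p = 0.403). Without control 1 the log2 difference of Hba-x was 0.27, against 0.70 with all pools, and that of Hbb-y in 1450621_a_at was 0.36, against 0.75.

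Among the mutant pools, mutant 1 was highest and mutant 3 lowest in all 7 probe sets. The arrays parted in a technical measure, the 3′ to 5′ signal ratio of dap, a bacterial transcript spiked in before labelling: it was 23.8 in mutant 1, 19.6 in mutant 2 and 22.9 in control 1, against 10.2 in mutant 3, 12.2 in control 2 and 11.1 in control 3. Among the arrays with a high ratio, the 7 globin probe sets were higher in mutant by 0.62 to 1.77 (log2), with a median of 0.90. Among the arrays with a low ratio, where 1 mutant pool stands against 2 control pools, the differences were −0.11 to 0.27, with a median of 0.08, and 5 of 7 were positive. The Hbb-bh1 probe sets had 0.16 to 0.27 there, while the Hbb-y probe sets had 0.08, −0.02 and −0.11 and Hba-x 0.01. Over all tested probe sets the median was −0.0020 in the high-ratio arrays and 0.0062 in the others. Each set holds 1 pool of 1 genotype, so these are values with no test, and the part of the array measure in the globin differences was not tested. With the ratio as a block in the limma model, 2 of the 7, both of Hbb-bh1, were called higher (adjusted p = 0.0374 for 1437990_x_at and 0.0366 for 1450736_a_at), against a background of 2.06% called higher in that model. Without mutant 3, 2 Hbb-bh1 probe sets were called (limma adjusted p = 0.0365 for 1437990_x_at and 0.0449 for 1437810_a_at), against 0.494%. Mutant 3 was the lowest mutant pool in all 7, so leaving it out raises the differences by construction. Leaving out any other single pool gave 0 called, with limma adjusted p of 0.139 to 0.418 for 1437990_x_at. With array quality weights, which give less weight to arrays that vary more around their genotype's mean, 5 of the 7 were called higher, all 3 of Hbb-bh1 and the 2 bright ones of Hbb-y (adjusted p = 0.0285 to 0.0472), against 4.48%.

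**Figure D2:**
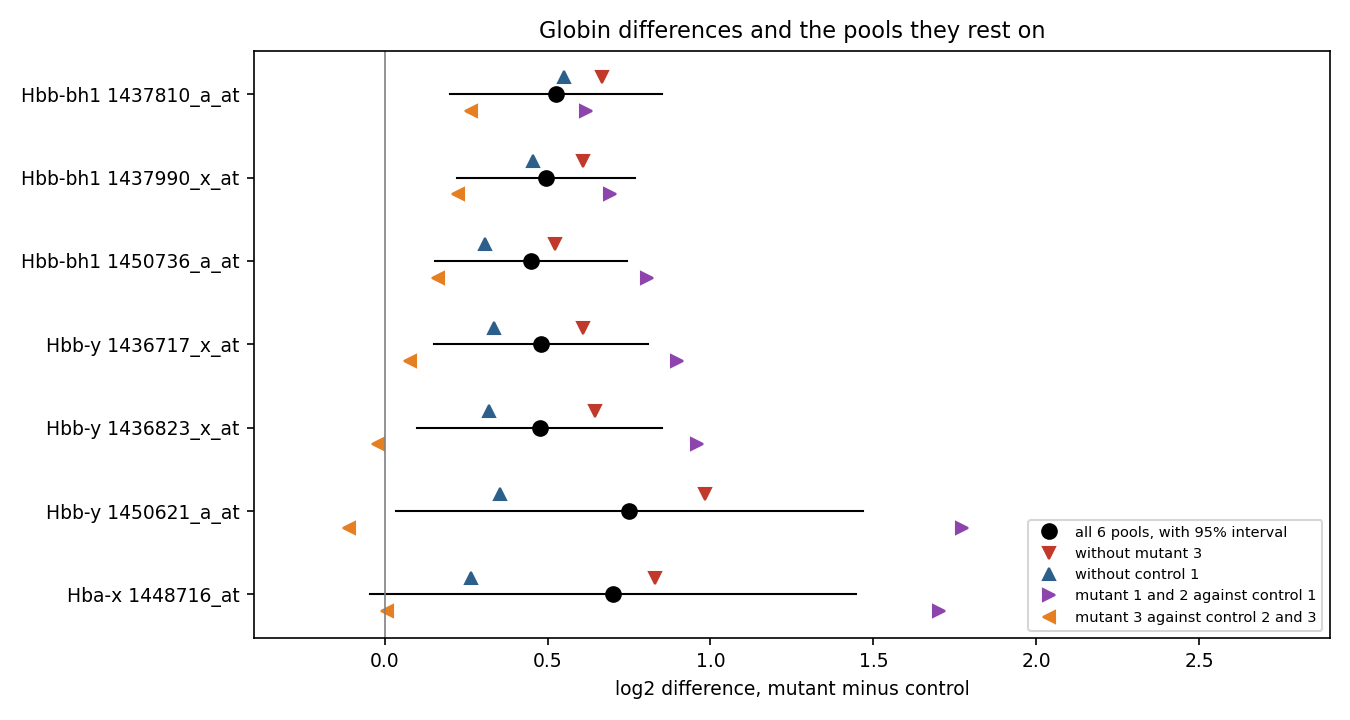
Log2 difference, mutant minus control, of each embryonic globin probe set with all 6 pools (black, bars are 95% confidence intervals), without 1 named pool, and within the arrays of high or low spike-in ratio. Mutant 1 and 2 against control 1 gave 0.62 to 1.77, and mutant 3 against control 2 and 3 gave −0.11 to 0.27.

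The 3 genes were then compared with one another within each array, using the brightest probe set of each. The log2 ratio of Hbb-bh1 to Hbb-y, set to 0 over the 6 pools, was 0.00, −0.10 and 0.12 in mutant pools and 0.22, −0.25 and 0.00 in control pools. Mutant and control pools differed in this ratio by 0.02 (exact permutation test, two-sided, p = 0.9). The ratio of Hbb-bh1 to Hba-x differed by −0.20 (exact p = 0.8) and that of Hbb-y to Hba-x by −0.22 (exact p = 0.6). After Benjamini-Hochberg adjustment over the 3 ratios all were 0.9, and with 3 pools against 3 the smallest p possible is 0.1. The widest spread lay in control 1, where the ratio of Hbb-bh1 to Hba-x stood at 0.89, against −0.36 to 0.12 in the other pools. Without control 1, the difference in that ratio was 0.19 (exact p = 0.6), with the opposite sign. Over the 6 pools, Pearson's r between any pair of the 7 probe sets was 0.57 to 0.99, as a description of pools that share 2 genotypes and array quality.

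The adult globin genes gave a partly different picture. The alpha-like genes Hba-a1 and Hba-a2 share 2 probe sets and cannot be told apart by them. Probe set 1428361_x_at read 13016, 11417 and 7206 in mutant pools, against 5028, 8358 and 9412 in control pools, and 1452757_s_at read 13567, 10074 and 8679 in mutant pools, against 4447, 8034 and 9499 in control pools. As with Hba-x, control 3 exceeded mutant 3, control 1 was lowest, and the differences did not pass (log2 0.48, SE 0.26, limma adjusted p = 0.468, and 0.60, SE 0.26, limma adjusted p = 0.358). Another probe set, annotated to Hba-a2 alone (1427219_at), read 102 to 128 in all pools, below the limit for testing. The probe set shared by the adult beta-globin genes (1417184_s_at) read 707, 1488 and 499 in mutant pools, against 294, 387 and 984 in control pools. Its order was its own, with mutant 2 and control 3 at the top, a 5.06-fold range over pools and no call (log2 0.74, SE 0.47, limma adjusted p = 0.540).

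**Figure D3:**
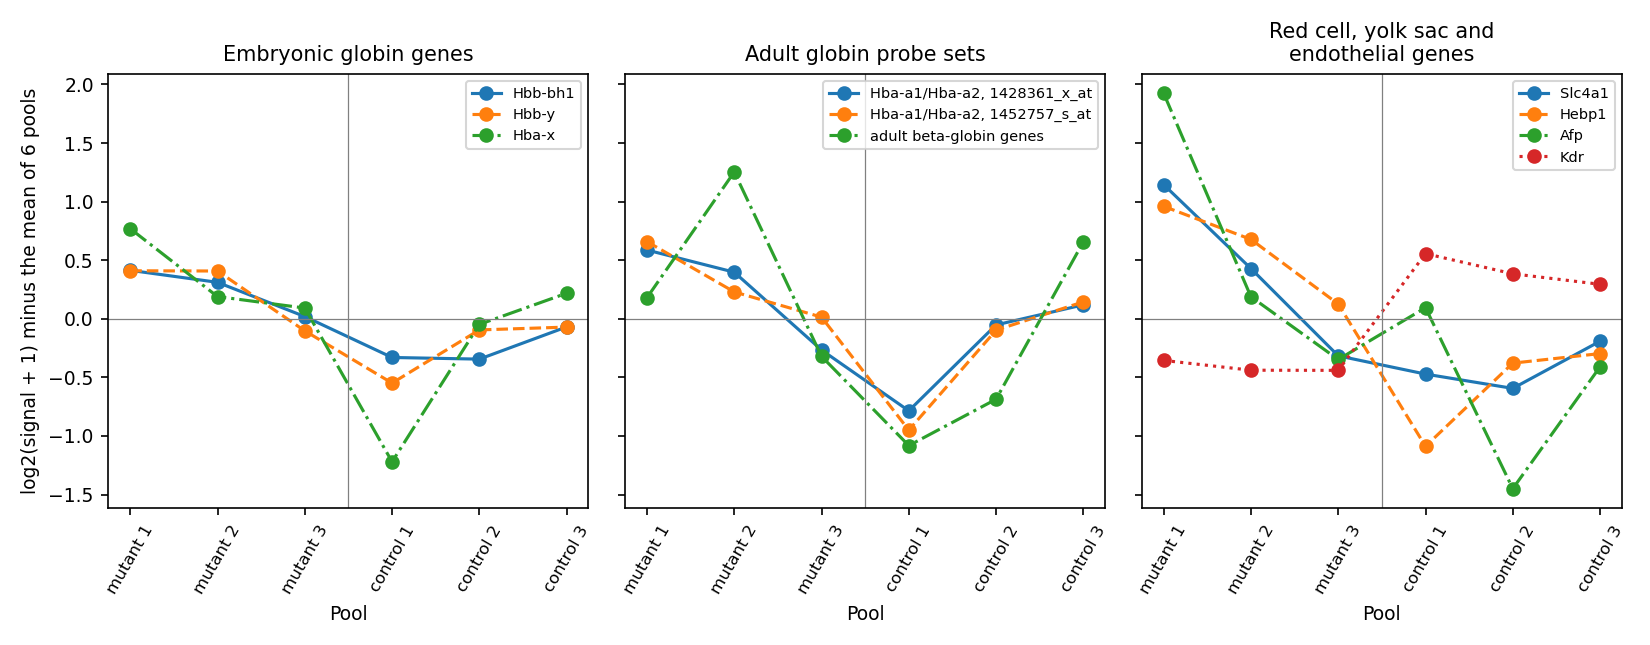
log2(signal + 1) minus its mean over the 6 pools, by pool, for the embryonic globin genes (brightest probe set of each), the adult globin probe sets, and 4 genes of red cells, yolk sac and endothelium. Control 1 is lowest for Hbb-y and Hba-x, Afp peaks in mutant 1, and Kdr is lower in all 3 mutant pools.

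Genes of the wider red cell programme were taken as lists. Of 51 tested probe sets in the 4 lists of haem synthesis, haem and iron handling, erythroid regulators, and red cell membrane, skeleton and enzymes, 0 were called, against a background of 0.690% called in either direction. Their medians were 0.15, −0.02, 0.01 and 0.07, against 0.50 for the embryonic globins. The genes tested were 6 of 9, 10 of 19, 9 of 26 and 11 of 41 listed, in the same order. Most listed regulators and membrane, skeleton and enzyme genes thus had no tested probe set. The medians describe the tested genes and not the red cell programme as a whole. Unadjusted p lay under 0.05 for 5 of them with higher and 2 with lower values in mutant, against 13.6% of all tested probe sets in either direction.

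Among red cell membrane, skeleton and enzyme genes, 12 of 20 tested probe sets had positive and 8 negative differences, and those named here have the list's smallest p-values. Slc4a1, the anion exchanger band 3 of the red cell membrane, read 969, 589 and 351 in mutant pools, against 315, 290 and 383 in control pools (1434502_x_at, log2 0.84, SE 0.31, limma adjusted p = 0.288). In this probe set mutant 1 and 2 stood above all controls, and mutant 3 among them. Slc4a1's dimmer probe set 1416464_at, below the limit for testing, had another order. It read 443, 228 and 247 in mutant pools, against 149, 144 and 287 in control pools, so control 3 lay above mutant 2 and mutant 3. Car2, a carbonic anhydrase, read 1950, 2107 and 1520 in mutant pools, against 1108, 1005 and 1254 in control pools, without overlap (log2 0.72, SE 0.15, limma adjusted p = 0.0753). Bpgm, which makes the 2,3-bisphosphoglycerate that loosens oxygen binding, had 0.48 in its dimmest probe set (1448119_at, SE 0.17, limma adjusted p = 0.269), and 0.11 (0.738) and 0.18 (0.647) in 2 brighter ones. The hexokinase Hk1 had 0.26 (limma adjusted p = 0.485).

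In haem synthesis, 8 of 9 tested probe sets had positive differences. Cpox, coproporphyrinogen oxidase, had 0.35 (SE 0.17, limma adjusted p = 0.410) and no overlap between the groups. Fech, which inserts the iron, had 0.18 (limma adjusted p = 0.639), Alad 0.15 (0.731) and Alas1, the enzyme of the first step outside red cells, 0.07 (0.872). In haem and iron handling, the haem-binding protein Hebp1 read 910, 748 and 510 in mutant pools, against 219, 359 and 380 in control pools (log2 1.18, SE 0.26, limma adjusted p = 0.0867). The groups did not overlap, and control 1 was lowest. The iron exporter Slc40a1 had 0.55 (limma adjusted p = 0.138), while the haem exporter Flvcr1 had −0.40 (0.191) and the iron sensor Ireb2 −0.34 (0.414). Tfrc, the transferrin receptor, had −0.16 in its tested probe set (0.534).

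The erythroid regulators had no common direction. Tal1, which founds the blood and endothelial lineages, read 441, 342 and 230 in mutant pools, against 486, 607 and 547 in control pools, lower without overlap (log2 −0.74, SE 0.23, limma adjusted p = 0.202). Its partner Lmo2 had −0.28 (limma adjusted p = 0.421), Foxo3, which acts late in red cell maturation, 0.28 (0.439) and the cytokine signalling kinase Jak2 −0.13 (0.766). The Foxo3 value is from its probe set of smallest p, and a brighter tested one is not given here. The defining factors of red cells were too dim to be tested. Gata1 read 132, 108 and 88.3 in mutant pools, against 72.0, 87.5 and 85.5 in control pools. Klf1, the activator that binds CACCC, read 191, 183 and 137 in mutant pools, against 114, 75.2 and 118 in control pools. Both had 3 mutant values above the 3 control values, and mutant 3 was the lowest mutant pool and, for Gata1, close to the highest control pool. The erythropoietin receptor Epor read 104 to 138 in mutant pools and 91.7 to 117 in control pools, overlapping. Alas2, the red cell enzyme of the first step of haem synthesis, had no probe set annotated to it alone among those used here.

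**Figure D4:**
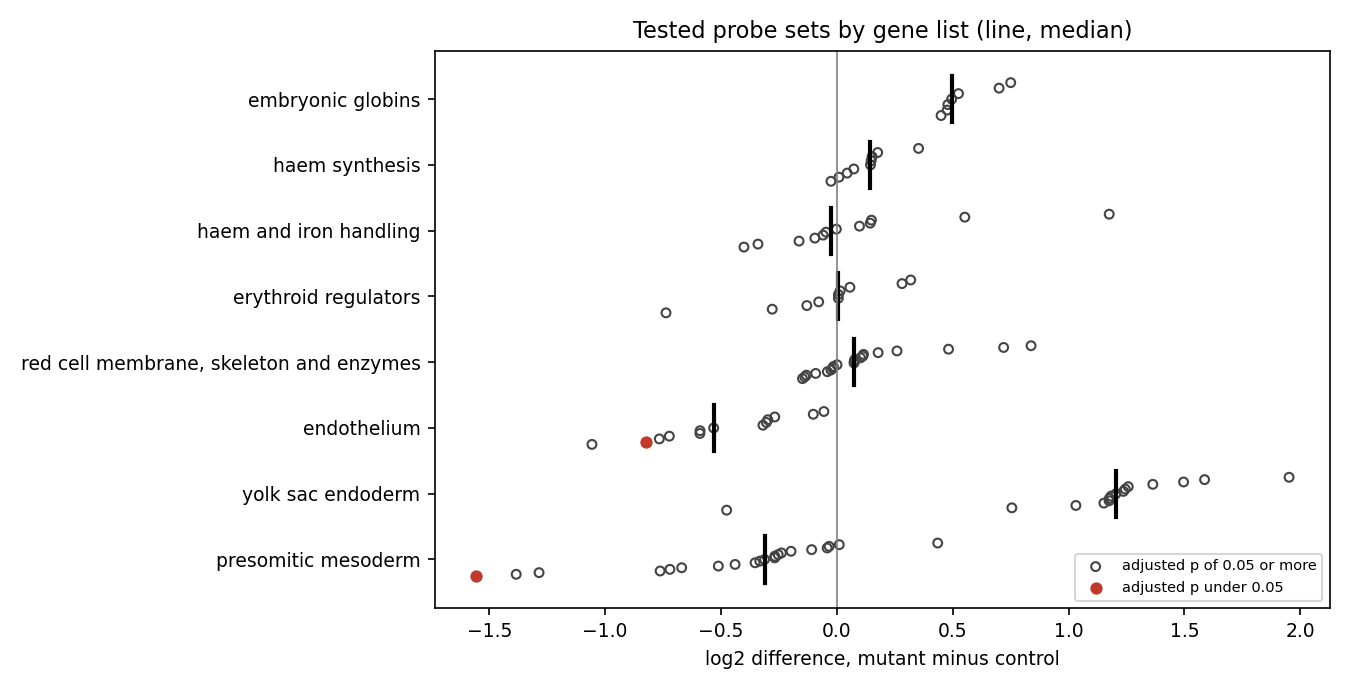
Log2 difference, mutant minus control, of each tested probe set of the gene lists that hold a tested probe set; the vertical line is the list's median, and filled points passed at an adjusted p under 0.05. The embryonic globins have a median of 0.50, the endothelial list −0.53 and the yolk sac endoderm list 1.20.

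Markers of other cell types also differed between pools. Of 17 yolk sac endoderm genes, 10 had a probe set and 8 were tested, by 15 probe sets. Of these 15, 14 had positive differences, against 49.6% of all tested probe sets, with a median of 1.20 and 0 called. Several share a gene, so the 15 stand for 8 genes and not for 15 separate observations. The summed signal of all the list's probe sets was 69983, 19761 and 15583 in mutant pools, against 21602, 8947 and 14732 in control pools, so mutant 1 stood apart. Afp, alpha-fetoprotein, read 2027, 608 and 419 in mutant pools, against 570, 195 and 401 in control pools (1416646_at, log2 1.18, SE 0.55, limma adjusted p = 0.399), and its other probe sets had 1.24 (0.413) and 1.95 (0.418). Mutant 1 was highest for the summed yolk sac signal and for all 7 globin probe sets, while control 1, lowest in 5 globin probe sets, was the highest control pool for both the summed signal and this Afp probe set. Spink1 had 1.15 (limma adjusted p = 0.278), the retinol carrier Rbp4 1.18 (0.347) and Cited1, a transcription coactivator, −0.48 (0.212). The part of these genes' source in the globin values was not tested.

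The tested endothelial markers of the list averaged lower in mutant pools. All 13 tested probe sets, of 10 of the 22 listed genes, had negative differences, with a median of −0.53, and 1 was called lower, against a background of 0.443% called lower. That was Kdr, the main VEGF receptor, with 404, 381 and 381 in mutant pools, against 761, 675 and 634 in control pools (log2 −0.82, SE 0.14, limma adjusted p = 0.0314). Without mutant 1, mutant 2, mutant 3, control 2 or control 3 its limma adjusted p was 0.149, 0.163, 0.0525, 0.123 and 0.105, with log2 differences of −0.85, −0.81, −0.81, −0.84 and −0.88, so the call was lost in each case while the difference stayed close to that with all pools. Without control 1 the adjusted p was 0.0376, with a difference of −0.75. The list's summed signal was 9885 to 13894 in mutant pools and 16600 to 18065 in control pools. A large part of that sum came from 1 probe set of Aplnr (1438651_a_at). It read 5730, 3500 and 4903 in mutant pools, against 8119, 7635 and 7134 in control pools. Sox17 had −1.06 (limma adjusted p = 0.0507), Egfl7 −0.59 (0.0754) and the apelin receptor Aplnr −0.72 (0.0912), each in the probe set of smallest p. The other probe sets had −0.27 (0.418) and −0.30 (0.299) for Egfl7 and −0.32 (0.615) for Aplnr. Ecscr, an endothelial cell surface gene outside the list, had 0.21 (SE 0.14, limma adjusted p = 0.569). Of the PSM genes, 1 of 21 tested probe sets was called lower, Ripply2, which acts at the somite boundary (−1.56, SE 0.14, limma adjusted p = 0.00150). The list's median was −0.31, with 19 negative and 2 positive differences. Next by smallest p were the protocadherin Pcdh8 with −1.38 (0.0507), Tbx6, a T-box regulator of paraxial mesoderm, with −0.76 (0.102), and the Notch ligand Dll1 with −0.72 (0.149). A brighter tested probe set of Pcdh8 is not given here. Of 24 PSM genes, 20 had a probe set, 17 were bright enough to be tested, and the summed signal of all the list's probe sets was 25710, 24859 and 30671 in mutant pools, against 34719, 37375 and 36069 in control pools. Platelet and white cell markers had 3 and 2 probe sets in the table, none bright enough to be tested, among them Itga2b, the platelet integrin, at 126 to 161 in mutant pools and 87.5 to 156 in control pools. No value in the table was 0, so none of these markers was listed at 0.

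The genes whose pattern was most like that of the globins were ranked by Pearson's r over the 6 pools with the mean of the 3 genes' centred log2 values, as a description. Of 7242 genes, 104 had an r above 0.9 and 30 above 0.95. The 10 highest, with r from 0.97 to 0.98, were Exosc3 (RNA exosome), Gemin8 (assembly of splicing particles), Syt11 (vesicle traffic), Os9 (protein quality control in the endoplasmic reticulum), Mbd2 (binding of methylated DNA), Ablim1 (actin binding), Snupn (nuclear import of splicing particles), Rab21 (endosome traffic), Hebp1 and Ecscr (endothelial cell surface). Hebp1 was the only one of the 10 on the red cell lists, and the only one that differed by more than 0.5 (log2) between the genotypes. With genotype means removed, the 10 highest were Xist, Pdia5 (protein folding), Exosc3, Os9, Elk4 (a transcription factor), Nsmce2 (DNA repair), Tspan9 (a tetraspanin), Hebp1, Efcab7 (Hedgehog signalling at the cilium) and Lrp2 (the endocytic receptor megalin). Xist, the RNA that silences an X chromosome in female cells, read 11330, 8978 and 6016 in mutant pools, against 4911, 9201 and 10701 in control pools. Like the mean of the 3 globin genes it was highest in mutant 1 among mutant pools and lowest in control 1 among controls, and the labels give no sex for the embryos. The median r over all 7242 genes was −0.04 over the 6 pools. It was 0.49 for haem synthesis genes, 0.24 for haem and iron handling (range −0.89 to 0.97), 0.31 for erythroid regulators and 0.17 for red cell membrane, skeleton and enzymes. For yolk sac endoderm it was 0.41, for endothelium −0.48 and for PSM −0.58. These medians include the genotype difference. With genotype means removed, endothelial genes ran from −0.60 (Kdr) to 0.82 (Tek), against −0.82 to 0.45 over the 6 pools. Yolk sac endoderm genes then ran from −0.24 (Cited1) to 0.30 (Rbp4), against −0.67 to 0.61, and PSM genes from −0.88 (Rspo3) to 0.84 (Nrarp), against −0.93 to 0.62.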

How the data were processed

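Signal was measured on Affymetrix 3′ expression arrays in 3 mutant and 3 control pools. The authors deposited linear intensity values, 1 for each probe set on each array, after their own summary and scaling; Expression Console and MAS5 are named per the submitters' processing notes, with versions and scaling target not given in the sources used here. Median signal per array was 491 to 535. Values were analysed as log2(signal + 1), and probe sets whose mean lay below the 40th percentile, a geometric mean signal of 349, were not tested. Genotypes were compared with limma 3.58.1 (R 4.3.3; empirical Bayes with intensity trend, two-sided), adjusted over 11731 probe sets, and tested on simulated data. Within-array ratios used SciPy 1.17.1. Names came from the platform annotation, which gave 17348 probe sets 1 symbol, 494 several and 1709 none; genes were not named from probe sets with several symbols except jointly. RefSeq's table (GRCm38.p6) gave promoters of Hbb-y and Hba-x.

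The members, gene lists, spike-in split and alternatives were chosen with earlier results of these data known. Named genes were the members, up to 4 genes a list by smallest p, a set of markers chosen by name, and the 10 most alike genes by each measure, without Rik, Gm and LOC symbols. The labels call pools biological replicates; the number of arrays limits the precision. Residuals of equally numbered pools had r of 0.20, −0.45 and 0.37, so pools were not treated as pairs.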

Additional observations from a re-analysis of the deposited data

How the results depend on the processing

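The 7 embryonic globin differences were positive in the 84 fits under the 12 alternatives that change the estimate itself (scaling, offset, array weights, spike-in block, pools left out), between 0.27 and 0.98 (log2), and adjusted p over all alternatives was 0.0285 to 0.788. The number of globin probe sets called was 0 except with array quality weights (5, in which 4.48% of all tested probe sets were called higher), with the spike-in ratio block (2) and without mutant 3 (2), and leaving out 1 pool gave 0 to 2. Within the arrays of low spike-in ratio, Hbb-y had −0.020 (1436823_x_at) and −0.11 (1450621_a_at). Over all probe sets, 81 were called; 48 were called with a filter at the 60th percentile, 1196 with array quality weights, 555 with the spike-in ratio block, 123 with 1 probe set a gene, 243 at an adjusted p under 0.1, and 24 to 149 without 1 pool. With replicate number as a block, 120 probe sets were called, 0 of them globin or red cell probe sets, and 9 of the other cell type lists. Red cell lists had 0 of 51 called. With array quality weights 6 were called, where 1196 of all 11731 were called. With the spike-in ratio block 5 were called, where 555 of all 11731 were. The red cell lists had 2 called with 1 probe set a gene (Hebp1 and Car2, named after their values were seen), 2 at an adjusted p under 0.1, and 0 to 2 without 1 pool. The other cell type lists had 2 called, against 4 with quantile normalization, median centring, an offset of 64, no filter, no intensity trend or 1 probe set a gene, 0 with the 60th percentile filter, 22 with array quality weights, 13 with the spike-in ratio block, 8 at an adjusted p under 0.1, and 1 to 6 without 1 pool. The 22 and 13 came from the settings with the most probe sets called over all, 1196 and 555, and are not read as a result about the lists. For the ratios between globin genes, Hbb-bh1 to Hbb-y differed by −0.078 with the probe sets of each gene averaged, −0.26 within the high spike-in ratio arrays and −0.10 to 0.13 without 1 pool (−0.04 without mutant 3, −0.10 without control 2). Hbb-bh1 to Hba-x differed by −1.01 within the high and 0.22 within the low spike-in ratio arrays and −0.40 to 0.19 without 1 pool, and Hbb-y to Hba-x by −0.74 within the high spike-in ratio arrays and −0.42 to 0.056 without 1 pool, positive without control 1. The cause of these changes was not tested. The brightest probe sets lie near the top of the arrays' range, and Gata1, Klf1, Epor and adult Hba-a2 near its bottom, which limits what the signals can show.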
